A study of Mus musculus with 2 samples.

Results

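The cells described here are 180 intestinal epithelial cells chosen by a score of serine and asparagine synthesis genes, out of 3409 cell barcodes in a single-cell RNA sequencing experiment on mouse distal small intestinal organoids. The score was the mean, over Atf5, Psph, Psat1, Asns, Phlda2 and Ccnd2, of the natural log of 1 plus the counts per 10000 of the barcode. It ranked 619 eligible barcodes, which had at least 500 detected genes, at most 25% mitochondrial counts, at least 3000 counts in all and no count of the cell cycle genes Mki67, Top2a and Ube2c. The 180 highest are called the high-score cells, and the other 439 eligible barcodes are the comparison cells. Both groups therefore exclude cells seen with a proliferation transcript, and the 6 genes of the score are high in the chosen cells by construction.

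Organoids are three-dimensional cultures in which intestinal stem cells keep dividing and form the differentiated cells of the gut lining. Control cultures (2) and Etv1 mutant cultures (3) were compared, and all of them carried the reporters Neurog3-RFP, for cells entering the enteroendocrine lineage, and Gcg-Venus, for cells expressing proglucagon. Etv1 encodes an ETS transcription factor, and the question was what differs when it is mutated. The cells were sorted, marked with a hashtag oligonucleotide for each culture and sequenced as 1 pool. Neither the nature of the Etv1 mutation nor the sort gate is stated in the labels, which call the cultures biological replicates.

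Cells make serine from a glycolytic intermediate in a short chain of enzymatic steps, and serine feeds glycine, the folate-bound one-carbon pool, cysteine and nucleotides. Asparagine synthetase makes asparagine from aspartate and glutamine. When amino acids run short or proteins misfold, the integrated stress response favours translation of the transcription factor ATF4, and genes of serine, one-carbon and asparagine metabolism, amino acid transporters and aminoacyl-tRNA synthetases are among its known targets. In the gut, stem and dividing progenitor cells of the crypt need these pathways for growth.

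By hashtag, 37 and 18 high-score cells came from control cultures 1 and 2, and 20, 22 and 19 came from mutant cultures 1, 2 and 3. A further 53 had no hashtag call and 11 had several, so 116 high-score cells entered the values per culture. The summed counts behind those values ran from 381292 in control 2 to 837044 in control 1. The high-score cells held a median of 24307 counts and the comparison cells 16725, a gap that moves with the score, while mitochondrial shares were alike, with medians of 3.79% and 4.02%. Etv1 itself had 45 and 44 counts in the filtered barcodes of the control cultures and 20, 20 and 13 in those of the mutant cultures. Among the high-score cells it had 9 counts in control 1 and 0 in each of the other 4 cultures. Among the comparison cells it had 24 and 18 counts in the control cultures (23.6 and 21.5 CPM, counts per 1000000) and 1, 18 and 0 in the mutant cultures (1.89, 18.3 and 0 CPM), so mutant 2 lay near the controls there and apart from the other mutants. Whether the counted part of the transcript lies in the mutated part is not stated in the labels.

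The score had no gap at its threshold. The lowest high-score cell and the highest comparison cell both scored 0.456, the median was 0.666 among high-score cells and 0.221 among comparison cells, and the highest value was 1.25. Within 0.05 of the threshold lay 32 high-score cells above and 44 comparison cells below, so the chosen cells are the upper end of a range of scores. Whether they form a separate type was not tested. Scoring each barcode after thinning to 3000 counts kept 121 of the 180, scaling each gene to unit SD kept 163, and leaving out Phlda2 and Ccnd2 kept 142.

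The promoters of some of these genes carry an element by which ATF4 is known to act, the C/EBP-ATF response element, searched as TGATGNAA on both strands in the 250 bases before each start site in RefSeq promoters of GRCm38.p6. It was present in 3.91% of the 27025 genes in the promoter table and in 2.21% of the 4021 described below that are in it. Of the score genes, 5 were in the table, Ccnd2 not, and 1 of them, Asns, had a match. Among lists of related genes it was found in 3 of 12 aminoacyl-tRNA synthetase genes, 6 of 21 integrated stress response genes, 4 of 13 genes of amino acid synthesis and transport, 1 of 13 endoplasmic reticulum chaperone genes and 0 of 11 serine and one-carbon genes. Of the genes counted below as higher in all 5 cultures, 11 were in the table and 1 had a match. Of those counted as lower, 42 were in it and 1 had a match. The windows of 4 genes are shown because the levels of these genes are described here and the windows hold no exon of GENCODE vM21, each 5′ to 3′ on the strand of its gene with the match in capitals. They lie at chr2:119351029-119351076 (Chac1, plus strand), chr6:55037951-55037998 (Gars, plus), chr2:122771550-122771597 (Sqor, plus) and chr1:191183416-191183463 (Atf3, minus), all before the RefSeq start site of the table. The GENCODE models of Sqor and Atf3 begin further upstream, so their windows fall inside the annotated genes, between exons.
Chac1: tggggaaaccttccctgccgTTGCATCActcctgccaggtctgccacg
Gars: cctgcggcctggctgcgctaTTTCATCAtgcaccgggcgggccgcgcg
Sqor: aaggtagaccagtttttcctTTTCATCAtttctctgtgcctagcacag
Atf3: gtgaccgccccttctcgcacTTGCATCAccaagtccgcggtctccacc
All 4 windows hold the reverse complement of the searched letters, at bases -193 to -186 from the start site in Chac1, -30 to -23 in Gars, -143 to -136 in Sqor and -110 to -103 in Atf3. The match of Asns, at -23 to -16 from its RefSeq start, and that of Nupr1, at -110 to -103, lie inside exons of GENCODE transcripts that start further upstream, and their sequences are not shown. A match is a description of the sequence and was not linked to binding here.

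Among the score genes, levels in CPM of the summed cells are given as they stand, since they chose the cells. Asns, which makes asparagine, stood at 247 and 254 CPM in the high-score cells of control cultures 1 and 2 and at 244, 187 and 238 in mutant cultures 1 to 3, against 76.6, 81.2, 70.1, 91.5 and 63.8 in the comparison cells. Psph, the last enzyme of serine synthesis, stood at 96.8, 94.4, 72.0, 73.5 and 108 CPM against 7.86, 17.9, 26.5, 12.2 and 18.5. Psat1, the enzyme before it, stood at 74.1, 83.9, 61.1, 36.7 and 101 CPM against 12.8, 11.9, 11.4, 20.3 and 15.1. Mutant 2 was lowest in both Asns and Psat1, and for those genes its high-score cells lay nearer to its comparison cells than in the other cultures. For Psph mutant 1 was the nearest, at 72.0 against 26.5 CPM. Atf5, a stress-induced bZIP transcription factor, varied least between cultures, at 149 to 171 CPM against 32.2 to 37.0. Ccnd2, the cell cycle regulator cyclin D2, ranged from 207 to 307 CPM against 72.0 to 124, and Phlda2, an imprinted gene, from 18.4 to 28.8 against 4.78 to 11.4. Asns and Ccnd2 made up 26.7% and 25.2% of the summed score and Phlda2 3.8%.

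**Figure D1:**
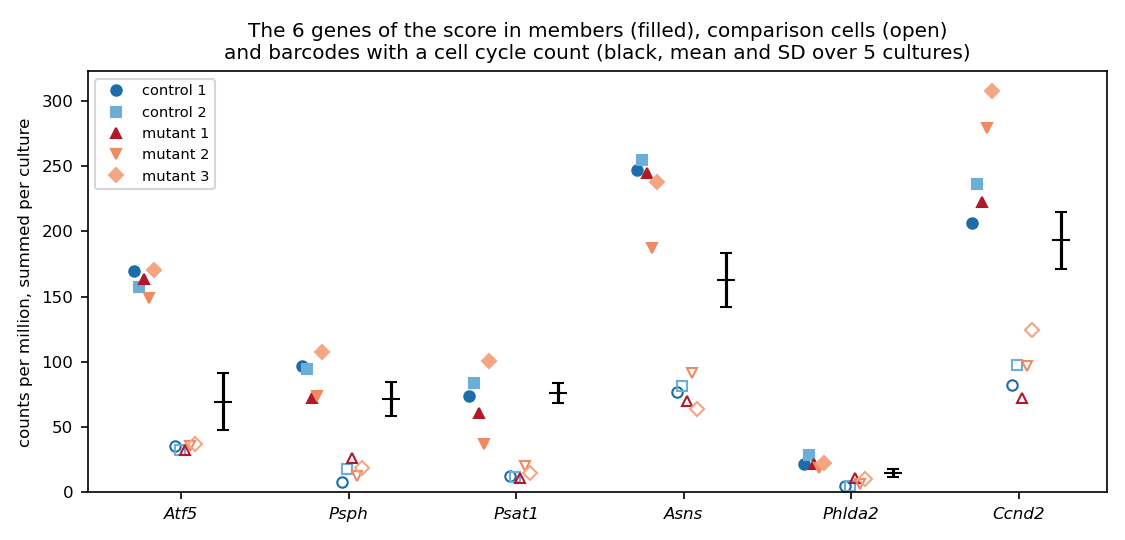
CPM of the 6 score genes (vertical axis, linear from 0) in high-score cells (filled, called members in the title) and comparison cells (open) of each of 5 cultures, with the mean and SD over 5 cultures of barcodes that had a cell cycle count (black). Psat1 lies at 36.7 to 101 in high-score cells and at a mean of 76.1 in barcodes with a cell cycle count.

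High scores were not limited to the cells without cell cycle transcripts. Of 1526 barcodes set aside for a count of Mki67, Top2a or Ube2c, 743 (48.7%) scored at or above the lowest high-score cell, against 29.1% of the eligible barcodes. Thinned to 3000 counts, the shares were 37.4% and 25.7%. By culture the unthinned shares were 56.1%, 46.2%, 41.3%, 51.1% and 41.4% with a cell cycle count, against 38.9%, 23.1%, 41.7%, 31.4% and 36.5% without, so mutant 1 showed no such gap. Thinned, they were 43.5%, 37.2%, 35.8%, 35.9% and 33.6% against 29.5%, 23.1%, 35.4%, 28.6% and 38.5%, so the gap was again absent in mutant 1 and was reversed in mutant 3. Psat1 averaged 76.1 CPM in barcodes with a cell cycle count, and the high-score cells were above their own culture's value in only 2 of 5 cultures. Atf5 averaged 69.6 CPM in barcodes with a cell cycle count, below the high-score cells in 5 of 5 cultures. The score chose the high-score cells and not these barcodes, so the rule favours that order for its genes. Over all summed barcodes it also held for Asns (165 against 238 CPM in the high-score cells) and Ccnd2 (184 against 239). Psph (74.2 against 93.7) and Phlda2 (15.3 against 21.4) had it too. Phgdh, the first enzyme of serine synthesis, averaged 208 CPM in barcodes with a cell cycle count, above the high-score cells in 4 of 5 cultures, and Shmt2, the mitochondrial enzyme that splits serine into glycine, averaged 77.5 CPM and was likewise above them in 4 of 5.

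The other genes of the high-score cells were described by the log2 ratio of high-score over comparison cells within each culture, with 5 CPM added to both. Since the rule used this contrast, the ratios carry no test. Of 5005 genes with a mean of at least 20 CPM, 15 (0.300%) were at least 1.5-fold higher in each of 5 cultures and 58 (1.16%) were at least 1.5-fold lower, and the median ratio of all 5005 was -0.03. Ratios were above 0 in all 5 cultures for 391 genes (7.81%) and below 0 for 513 (10.3%). These shares are the background for the counts in each list below. In the high-score and comparison barcodes with no hashtag, 10 of the 15 and 43 of the 58 were past the same fold, and 13 and 53 had the same direction. With both groups limited to barcodes of at least 15000 counts, 14 genes were higher and 48 lower, and with scores from barcodes thinned to 3000 counts 4 were higher and 28 lower.

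Mthfd2, the mitochondrial folate enzyme downstream of serine, led the higher genes. It stood at 145, 110, 118, 90.0 and 150 CPM in the high-score cells and 38.3, 22.7, 39.8, 31.5 and 30.2 in the comparison cells, with no overlap, a mean log2 ratio of 1.76 ± 0.34 (SD, n = 5). Of the 6 serine and one-carbon genes described beside Psph and Psat1, Mthfd2 was the one past the fold in every culture. In all 5 cultures 3 were above 0 and 1 was below (7.81% and 10.3% of all described genes), with a median of 0.69. Phgdh had a ratio of 0.95 ± 0.45, at 151, 163, 140, 88.2 and 218 CPM against 54.0, 81.2, 77.7, 72.2 and 84.0, and Shmt2 one of 0.99 ± 0.60. Shmt1, the cytosolic counterpart of Shmt2, had a ratio of -0.07 ± 0.66 and was higher in 1 culture of 5.

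Cth, which makes cysteine from cystathionine, was higher in every culture, at 362, 288, 281, 446 and 294 CPM against 141, 75.2, 114, 186 and 148, a ratio of 1.33 ± 0.33. It was the one of 8 described genes of amino acid synthesis and transport past the fold, and the median of the 8 was 0.29. The arginine transporter gene Slc7a1 had a ratio of 0.65, the transporter subunit gene Slc3a2 one of 0.50 and the glutamine synthetase gene Glul one of -0.61.

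The aminoacyl-tRNA synthetases, which load amino acids onto tRNAs, lay on the higher side as a list against the comparison cells. Summed, they stood at 1956 ± 209 CPM in the high-score cells and 1185 ± 77.7 in the comparison cells (SD, n = 5). Barcodes with a cell cycle count were close to the high-score cells, at 1777 ± 109 CPM. All 19 were described, 12 were above 0 in all 5 cultures and none was below 0 in all 5, with a median of 0.69, whereas over all 5005 genes 7.81% were above 0 and 10.3% below 0 in all 5 cultures. Nars, for asparagine, and Mars1, for methionine, passed the fold in each culture. Nars stood at 446, 540, 427, 433 and 444 CPM against 205, 155, 229, 194 and 250, a ratio of 1.14 ± 0.38, and Mars1 had one of 1.13 ± 0.44. Gars, for glycine, had a ratio of 0.91 ± 0.36 and Tars, for threonine, one of 0.71 ± 0.24, and both were higher in 5 of 5 cultures. At the other end, the synthetase genes Kars, Qars and Wars had mean ratios under 0 (the plot of ratios by list).

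Of 13 described integrated stress response genes beside Atf5, 4 were above 0 in all 5 cultures and none below, with a median of 0.65. Of all described genes 7.81% were above and 10.3% below. Eif4ebp1, a repressor of translation initiation, passed the fold, at 415, 341, 423, 340 and 422 CPM against 129, 124, 208, 106 and 168, a ratio of 1.4 ± 0.27. Trib3, a pseudokinase induced by ATF4, had a ratio of 1.20 ± 0.84 and was higher in 4 of 5 cultures, mutant 2 being the exception. Chac1, a glutathione-degrading enzyme of the same response, was under the level for description and stood at 55.0, 23.6, 37.1, 25.7 and 22.4 CPM against 2.95, 4.78, 1.89, 9.15 and 8.40, with no overlap. Atf4 itself, which is regulated mainly in translation, had a ratio of 0.21 ± 0.25, and Atf3 one of -0.88 ± 1.25. The chaperone genes of the endoplasmic reticulum, targets of the other arms of the unfolded protein response, showed no such pattern: of 14 described, none was above or below 0 in all 5 cultures, and the median was -0.12. Mitochondrial chaperones and proteases had a median of 0.37 over 8 genes, 1 of them above 0 in all 5 cultures.

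**Figure D2:**
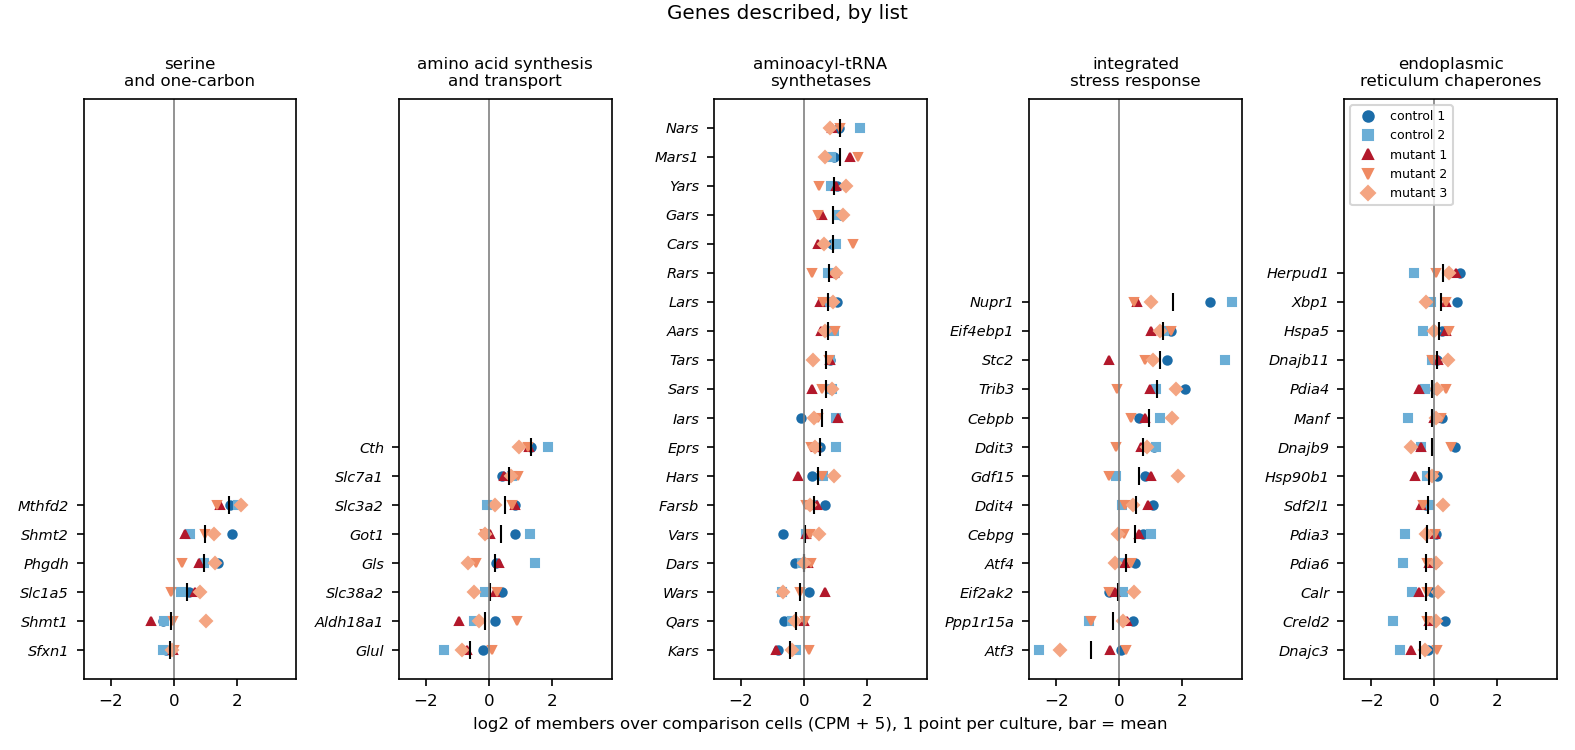
Log2 ratio of high-score cells (members) over comparison cells (horizontal axis) for the described genes of 5 lists, 1 point per culture and a black bar at the mean of 5 cultures. All points of Mthfd2, Cth, Eif4ebp1, Nars and Mars1 lie to the right of 0, and the endoplasmic reticulum chaperones lie on both sides.

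Several of the 15 higher genes belong to none of these lists. Areg, which encodes the EGF receptor ligand amphiregulin, stood at 299, 372, 517, 321 and 379 CPM against 161, 119, 218, 129 and 188, a ratio of 1.20 ± 0.28. Pparg, a nuclear receptor gene, had a ratio of 1.24 ± 0.42, and Sqor, a mitochondrial sulfide oxidase gene, one of 0.80 ± 0.14. Eif2s2, the beta subunit of the initiation factor whose alpha subunit is phosphorylated in the integrated stress response, had a ratio of 0.82 ± 0.20, with 740 to 872 CPM against 380 to 529. Phf10 and Pibf1 had ratios of 1.29 ± 0.26 and 1.41 ± 0.70, and Gstp3 one of 1.08 ± 0.49. Myl7 had a ratio of 1.24 ± 0.77 with only 7.35 against 1.02 CPM in mutant 2. F3, the tissue factor gene, had a ratio of 1.62 ± 1.16 in the 5 cultures but -0.97 in barcodes with no hashtag, and Septin5 had 0.78 ± 0.13 but -0.08 there.

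The cells had been grouped under the name of progenitors, and stem cell and secretory progenitor markers were low in them, whereas absorptive progenitor markers lay between those of other cells. Of 9 described stem cell markers, 7 were at least 1.5-fold lower in every culture (1.16% of all described genes). In all 5 cultures 8 were below 0 (10.3% of all described genes), with a median of -1.39. Lgr5, the receptor that marks crypt stem cells, stood at 54.4, 86.5, 34.9, 18.4 and 27.7 CPM against 134, 168, 97.0, 78.9 and 137, a ratio of -1.49 ± 0.48. Olfm4, another stem cell marker, had a ratio of -2.61 ± 1.60, and the Wnt target Axin2 one of -1.19 ± 0.27. Summed, the 10 stem markers reached 965 ± 365 CPM in the high-score cells (SD, n = 5), against 2958 in the comparison cells and 7809 in the 150 barcodes that were highest for these markers outside the high-score cells. Of 6 described S phase genes none was past the fold, with a median of -0.50, and of the 180 eligible barcodes highest for that list 29.4% were high-score cells, against 29.1% of all eligible barcodes. Secretory progenitor markers summed to 280 ± 95.8 CPM against 536. Of 7 described absorptive progenitor markers, 2 were above 0 and 3 below 0 in all 5 cultures, with a median of -0.37. Of all described genes 7.81% were above and 10.3% below. Their sum was 6809.5 ± 2676 CPM, against 8826 in the comparison cells, 2969 in barcodes with a cell cycle count and 1532 in the stem marker barcodes.

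Markers of differentiated cells were also low against the comparison cells. All 7 described Paneth cell markers and all 4 described goblet cell markers were at least 1.5-fold lower in every culture, led by the antimicrobial peptide genes Defa17 and Defa24, with ratios of -5.01 ± 1.61 and -4.72 ± 1.71, and by Spink4 with -4.26 ± 1.13. Of 11 enterocyte markers, 3 were lower by the fold (1.16% of all described genes) and 8 were below 0 in all 5 cultures (10.3%). Summed, enterocyte markers stood at 1269 CPM, against 3168 in the comparison cells. They were lower in barcodes with a cell cycle count, at 676 CPM, and in the stem marker barcodes, at 302 CPM. The brush border enzyme gene Sis stood at 336 to 643 CPM against 578 to 1320.3 in the comparison cells, yet above the 150 stem marker barcodes, at a mean of 54.6, in 5 of 5 cultures. Enteroendocrine markers summed to 14.7 to 2425 CPM in the high-score cells, with control 1 highest: the secretory granule gene Chgb stood at 1894 CPM there and at 7.87, 0, 0 and 2.24 in the other 4 cultures. Tuft, immune and mesenchymal markers had no described gene, and their sums averaged 1.53, 1.0 and 0.239 CPM.

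Keratin genes lay higher. Of 6 epithelial markers 3 were above 0 in all 5 cultures (7.81% of all described genes), with a median of 0.12. The keratin gene Krt19 stood at 3148, 2203, 3557, 4351 and 2515 CPM against 1978, 1128, 1858, 1823 and 1879.9, a ratio of 0.85 ± 0.32, and Krt8 had one of 0.72 ± 0.38. Of 8 described injury and fetal-like markers, Areg was past the fold and was the only one above 0 in every culture, beside 7.81% of all described genes, and the median of the 8 was 1.08. Of the 180 eligible barcodes highest for that list, 71 (39.4%) were high-score cells, against 29.1% of all eligible barcodes. Among the 180 highest for stem, Paneth and enterocyte markers the shares were 16.7%, 17.8% and 15.6%. Immediate early genes, which respond to handling as well as to growth signals, had a median of -0.60 over 12 genes. Of them 6 were below 0 in all 5 cultures, beside 10.3% of all described genes.

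**Figure D3:**
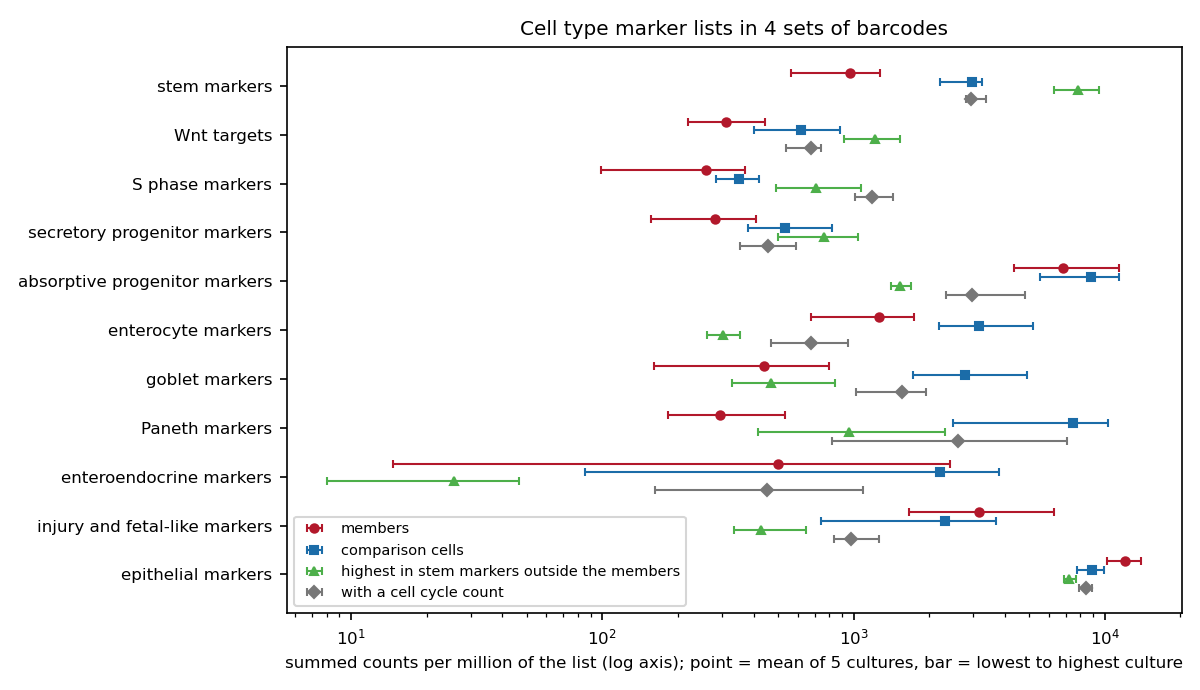
Summed CPM of 11 marker lists (horizontal log axis) in high-score cells (members), comparison cells, the 150 barcodes highest in stem markers outside the high-score cells, and barcodes with a cell cycle count; points are means and bars the lowest to highest of 5 cultures. Stem markers average 965 in the high-score cells and 2958 in the comparison cells, and epithelial markers lie highest in the high-score cells.

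The high-score cells were not uniform. In 65 of them (36.1%) Ccnd2 was the largest of the 6 score values, in 63 (35.0%) Asns and in 42 (23.3%) Atf5. Atf5 and Ccnd2 had a Spearman correlation of -0.36 across the 180 cells, where choosing cells on a sum pushes correlations between its terms down, and of 0.03 across all 619 eligible barcodes. It was -0.22 in the comparison cells and 0.19 in all barcodes with a cell cycle count. In the 743 of the latter at or above the lowest high-score cell it was -0.05. The part of the selection in the value of -0.36 was not tested. Splitting the cells by which of these genes was higher, a split made after the values were seen and given without a test, left 69 cells led by Atf5 and 105 led by Ccnd2, with 6 equal, at median depths of 26245 and 23349 counts.

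Genes of absorptive cells were among those higher in Atf5-led cells. The stem cell marker Olfm4, Dut and the absorptive progenitor marker Dmbt1 were among those higher in Ccnd2-led cells, so absorptive markers did not all lie on the Atf5-led side. Of 4868 genes described, Atf5 and Ccnd2 left out, 41 were at least 1.5-fold higher in the Atf5-led cells in each of 5 cultures and 15 in the Ccnd2-led cells. The Atf5-led side held the glucose transporter gene Slc5a1, at a mean of 205 against 66.5 CPM (log2 ratio 1.51 ± 0.84), the lipoprotein gene Apob, at 85.4 against 35.6 CPM (1.19 ± 0.46), the enterocyte genes Tmigd1 and Spink1, with 2.65 ± 0.99 and 3.36 ± 1.75, and Trib3, with 1.99 ± 1.02. The Ccnd2-led side held Olfm4, at 667 against 85.7 CPM (-2.78 ± 1.59), the nucleotide metabolism gene Dut, with -1.60 ± 1.04, the nucleolar gene Nolc1, with -1.47 ± 0.62, the mitochondrial chaperone gene Hspd1, with -0.96 ± 0.44, and Shmt1, with -1.29 ± 0.82. The histone genes H2ac18 and H2ac19 on the Atf5-led side are near-identical copies with equal values and cannot be told apart. Among the high-score cells without a single hashtag, 38 of the 41 and 13 of the 15 had the same direction. The comparison cells split in the same way had it for 40 of the 41 and all 15, so these genes also went with Atf5 and Ccnd2 outside the high-score cells.

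By list, the summed integrated stress response genes other than Atf5 stood at 3182 CPM in the Atf5-led and 1352 CPM in the Ccnd2-led cells, and were higher in 5 of 5 cultures. Nupr1 alone gave 1472 and 307.9 CPM of these sums, and without it, a sum added after seeing the data, they were 1710 and 1044 CPM, higher in 5 of 5 cultures. Genes of amino acid synthesis and transport stood at 1051 and 708 CPM, also higher in 5 of 5. Ribosome biogenesis genes went the other way, at 2282 and 3623 CPM, and so did stem markers, at 531 and 1325 CPM, both lower in 5 of 5 cultures. Enterocyte markers stood at 2252 and 641 CPM and absorptive progenitor markers at 9348 and 5119 CPM, each higher in the Atf5-led cells of 4 of 5 cultures. The serine and one-carbon genes outside the score differed little, at 578 and 644 CPM, and were higher in the Atf5-led cells of 1 culture.

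**Figure D4:**
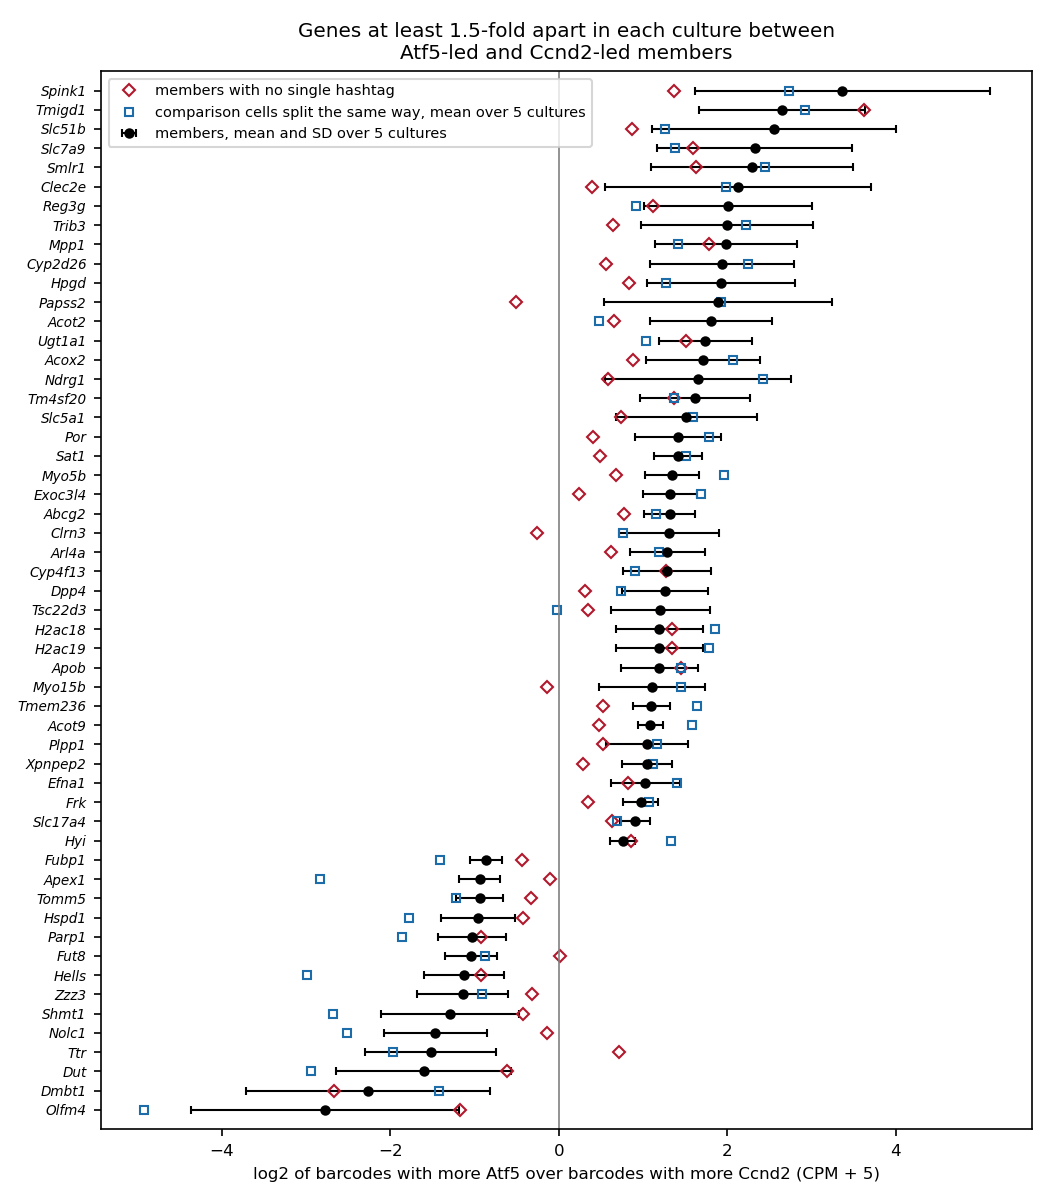
Log2 ratio of Atf5-led over Ccnd2-led cells (horizontal axis) for genes reported here that were at least 1.5-fold apart in each culture: black, high-score cells, mean and SD over 5 cultures; red, high-score cells with no single hashtag; blue, comparison cells split in the same way. The absorptive genes Slc5a1 and Spink1 lie to the right, and Olfm4, Dut and the absorptive progenitor marker Dmbt1 to the left.

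The share of high-score cells overlapped between genotypes. They made up 38.9% (95% exact binomial interval 29.1 to 49.5) of the eligible barcodes in control 1 and 23.1% (14.3 to 34.0) in control 2, and 41.7% (27.6 to 56.8), 31.4% (20.9 to 43.6) and 36.5% (23.6 to 51.0) in mutant cultures 1 to 3. The intervals cover counting error only. The means were 31.0% ± 11.2 (SD, n = 2) and 36.5% ± 5.12 (n = 3), the groups overlapped, and the difference of 5.53 percentage points had a two-sided exact permutation p of 0.6, where the smallest the design allows is 0.1. Without control 2 the difference was -2.40 points. With the 240 highest scores it was 10.1 points, at an exact permutation p of 0.1, so the result depends on the number of cells chosen.

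No gene passed the genotype test within the high-score cells. Of 5000 genes tested with edgeR's quasi-likelihood test on the sums per culture, 0 (0%) had a Benjamini-Hochberg adjusted p under 0.05, 86 were higher and 61 lower in mutant cells at an unadjusted p under 0.05, and DESeq2 also gave 0. A lack of overlap between the 2 control and 3 mutant cultures was seen for 850 of the 5000 genes (17%). The antimicrobial lectin gene Reg3b had the smallest p, at 21.5 and 73.5 CPM in controls 1 and 2 and 399, 597 and 222 in mutants 1 to 3, a log2 difference of 3.23 (SE 0.53) without overlap (edgeR adjusted p = 0.502). The heme oxygenase gene Hmox1 followed, at 4.78 and 0 CPM against 24.0, 42.3 and 71.8 (edgeR adjusted p = 0.767). On the lower side, Bex1 stood at 204 and 55.1 CPM against 28.4, 29.4 and 22.4 (edgeR adjusted p = 0.767), with control 1, which also held the most enteroendocrine transcripts, far above the rest. Of the score genes, Asns differed by -0.17 and Atf5 by -0.03 on the log2 scale, and Mthfd2 by -0.11. Without control 2, 8 genes passed, among them Reg3b, Bex1 and the enteroendocrine genes Chga, Chgb and Tph1, in a fit where control 1 is alone and is assumed to vary like the mutant cultures.

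One gene differed between the high-score and comparison cells in its response to genotype. In the comparison cells 1 of 7224 genes (0.0138%), the hormone gene Pyy, passed, and in the test of the difference between both responses, with culture as a block, 1 of 6499 genes (0.0154%) passed. That gene was Nupr1, a stress-induced nuclear protein gene. In the high-score cells it stood at 904 and 1291 CPM in controls 1 and 2 and at 674, 231 and 649 in mutants 1 to 3, so that both controls were above all 3 mutants. Of the 5000 genes tested in those cells, 850 (17%) had no overlap between genotypes. Mutant 2, the lowest, held Etv1 at 18.3 CPM in its comparison cells and at 0 counts in its high-score cells. Over all filtered barcodes its Etv1 stood at 3.06 CPM, beside 3.21 and 3.1 in mutants 1 and 3 and 6.2 and 6.28 in the controls. A link between Etv1 and Nupr1 was not tested. In the comparison cells the order was turned, with Nupr1 at 118 and 103 CPM against 451, 165 and 323, where 18.15% of genes had no overlap. Nupr1 passed in neither set of cells alone, with an edgeR adjusted p of 0.996 in the comparison cells. The log2 difference of the responses was -2.61 (SE 0.29, edgeR adjusted p = 0.0109). Without mutant 2 the edgeR adjusted p was 0.0629 at a difference of -2.49. With hashtags called by MULTIseqDemux it was 0.143 at a difference of -2.995. With the 120 or 240 highest scores, with unit SD scaling and on thinned barcodes no gene passed. Nupr1 also moved with the make-up of the high-score cells: it stood at 1472 CPM in Atf5-led and 307.9 CPM in Ccnd2-led cells. Atf5-led cells numbered 16 of 37 and 7 of 18 high-score cells in the control cultures. In mutant cultures 1 to 3 they numbered 11 of 20, 7 of 22 and 6 of 19. The part of that make-up in the result was not tested.

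**Figure D5:**
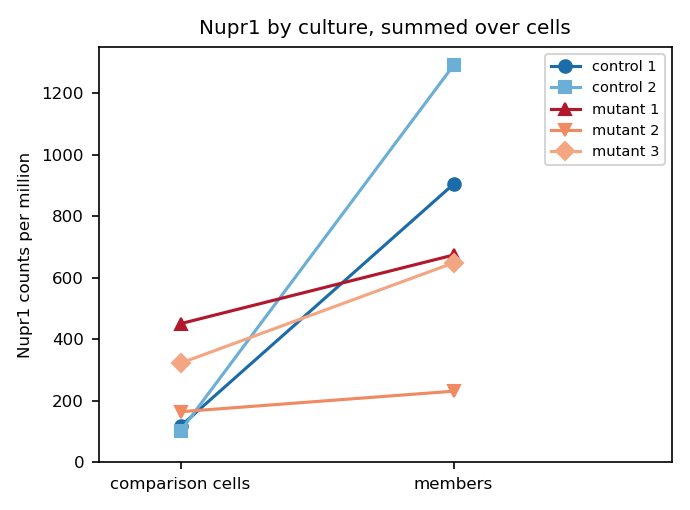
Nupr1 CPM (vertical axis, linear from 0) in comparison cells and high-score cells (members) of each culture, 1 line per culture. Both control lines climb from the lowest values among comparison cells, 118 and 103, to 904 and 1291, and the mutant 2 line is nearly flat, from 165 to 231.

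Across the 439 comparison cells, in which the rule did not select for high values, the genes most like the score by Spearman correlation, of 6069 found in at least 20% of those cells, were Mthfd2, Tomm5 and Ybx1, each at 0.26, Aimp2, at 0.25, and Rpp14, at 0.24. The lowest were Tm4sf4, at -0.23, Gcc2, at -0.21, and Rpl9-ps6, at -0.20. The total count of the cell correlated with the score at 0.27, and after thinning to 3000 counts all 8 genes lay between -0.15 and 0.11, so these weak correlations, over cells that share libraries and differ in depth, order no genes.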

How the data were processed

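The authors deposited a matrix of hashtag counts and a matrix of estimated counts of RNA per gene (expected counts), both over the same 3409 barcodes and neither normalized. The submitters' processing notes name alevin, Salmon (1.4.0), Cell Ranger (6.1.0), Seurat (4.3.0) and the build mm10, without a role for each. Of the RNA values above 0, 95.6% are whole.

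Barcodes were placed in cultures with HTODemux in Seurat 5.3.0 (positive quantile 0.99). Barcodes with several hashtags entered no value per culture, and doublets within a culture were not called. Counts were summed per culture and rounded. Differences, mutant minus control, were tested with edgeR 4.0.16 (R 4.3.3, quasi-likelihood, TMM, filterByExpr, Benjamini-Hochberg), with DESeq2 1.42.0 as an alternative. The edgeR fits were also run on simulated counts with the same spread for every gene, which does not stand for the spread between these cultures. The test of the difference took members and comparison cells of each culture with culture as a block. Cultures are the replicates, and p-values measure the spread between these 5. The range from 381292 to 837044 summed counts limits genes of low level. Stem marker and cell cycle barcodes and the Atf5 and Ccnd2 split were added after the values were seen.

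Named genes were the score genes, the 15 largest and 10 smallest ratios among genes past the fold in all cultures, up to 4 of each list by size of ratio, genes passing a genotype test or the 3 smallest p in a direction, and the 5 highest and 3 lowest correlations and are given by example. Names outside these rules were picked with their values known. The cells, gene lists and tests were chosen with earlier results of these data known. Python 3.11.15 with numpy, scipy, pandas and matplotlib was used. Alternatives covered the number of cells, the score, thinning, hashtag calls, filters, pseudocounts and leaving out each culture. Some genes are not reported here.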

Additional observations from a re-analysis of the deposited data

Results flagged for a closer look

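Nupr1 stands out because its difference between genotypes was not the same in the 2 sets of cells: the log2 difference of the responses, high-score minus comparison cells, was -2.61, with 904 and 1291 CPM in the high-score cells of the control cultures against 674, 231 and 649 in the mutant cultures. It was negative under all 13 alternatives, from -3.07 to -1.93, and passed under 7 of them, with edgeR or DESeq2 adjusted p values from 7.33e-19 to 1.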

How the results depend on the processing

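Of 76 alternative values of the comparisons, 43 were counted as unchanged, which does not mean close. For shares these included differences of 10.1 and 13.5 points, against 5.53 reported. The exact permutation p could not pass 0.05 there, since the smallest the design allows is 0.1. For numbers of genes, the genes themselves were not compared. With MULTIseqDemux 1 gene passed for the difference of responses, but it was not Nupr1 (edgeR adjusted p = 0.143). Genes passing by genotype within the high-score cells numbered 60 with no filter on low counts and 1 with score genes scaled to unit SD, and 0 to 8 with a culture left out. In the comparison cells they numbered 80 with no filter and 1 to 6 with a culture left out. For the difference of responses they numbered 2 with DESeq2, 42 with no filter, 3 without Phlda2 and Ccnd2 in the score, 0 with the 120 highest scores, 0 with the 240 highest, 0 with unit SD scaling, 0 on thinned barcodes, and 0 to 14 with a culture left out. The difference in shares was -0.118 percentage points over all barcodes past the gene and mitochondrial filters, and ran from -2.40 to 13.5 with a culture left out. With the 240 highest scores it was 10.1 points, at an exact permutation p of 0.1, the smallest the design allows. Higher genes numbered 7 with the 120 highest scores, 9 with the 240 highest, 4 on thinned barcodes, 8 at a pseudocount of 20 CPM, and 18 to 28 with a culture left out. Lower genes numbered 28 on thinned barcodes, 96 at a mean of at least 5 CPM and 60 to 93 with a culture left out. Thinned scores shared 2 of 15 higher and 21 of 58 lower genes with the reported ones. Of the 108 genes named by ratio, none that was past the fold in all cultures changed sign. Among genes with the smallest p, Defa30 ran from -3.67 to 0.055 with a culture left out, the positive value without control 1, and was 0.046 without Phlda2 and Ccnd2, Cyp4f14 to -0.573 on thinned barcodes, and Mt4 to -0.031 with MULTIseqDemux and -0.3 on thinned barcodes. The causes were not tested. No paired analysis was possible because the labels give the cultures no numbers shared between groups. With 18 to 37 high-score cells per culture, depth limits genes of low level.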
